A study of Rattus norvegicus with 6 samples.

Results

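Of 10 genes of the intercalated disc and the costamere that were looked up by gene symbol, 9 had a row of that name among the 34257 genes of the table. The 9 were the cadherin gene Cdh2, the desmosomal genes Dsg2, Dsp and Jup, the gap junction gene Gja1, the vinculin gene Vcl, the Xin repeat genes Xirp1 and Xirp2, and the desmin gene Des. No row was named Pkp2, the plakophilin-2 gene, so Pkp2 is not analysed here under its symbol. The values came from neonatal rat ventricular cardiomyocytes, which are heart muscle cells isolated from newborn rats and kept in culture. Cells of 3 libraries received perhexiline at 1 µM for 24 h, and those of 3 other libraries received vehicle, with no genetic change named for either group. Perhexiline, used against angina, blocks the carnitine palmitoyltransferase step by which mitochondria take up long-chain fatty acids. Nothing in the labels tells whether replicates of a group came from separate cultures or animals, so each p-value reflects only how far these libraries differ, and that spread may be technical.

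The intercalated disc is the contact between the ends of neighbouring heart muscle cells. It holds adherens junctions, which carry the pull of the actin filaments, desmosomes, which anchor the desmin filaments, and gap junctions, which pass the electrical impulse. Costameres are the lateral attachments of the sarcomere to the plasma membrane, built around vinculin, talin and integrins on one side and the dystrophin complex on the other. In rodent hearts these junctions lie along the whole cell surface at birth and gather at the cell ends later, and changes in human desmosomal genes cause arrhythmogenic cardiomyopathy.

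Each library held 13616252 to 16702523 fragments, recovered from the deposited FPKM (fragments per unit of gene length and of library depth). The members were well covered, with between 825 fragments for Xirp2 in vehicle replicate 3 and 22053 for Des in perhexiline replicate 1. All 9 cardiomyocyte markers were present, and their geometric mean was 1182, 1043 and 1084 FPKM in the perhexiline libraries, against 1443, 1425 and 1247 FPKM in the vehicle libraries. Myh6, Tnni3 and Actn2 among them fell, at 0.76, 0.75 and 0.76 times their vehicle means (limma adjusted p = 0.039, 0.0373 and 0.0294). Cells of other types were present too. The 8 fibroblast markers summed to 1003 to 1050 FPKM with perhexiline, against 1044 to 1083 with vehicle, and in that list Dcn and Pdgfra rose (1.44 and 1.35 times, limma adjusted p = 0.0138 and 0.0373) and Col3a1 fell (0.79 times, limma adjusted p = 0.0251). The 7 macrophage markers summed to 43.5 to 67.7 FPKM, against 79.3 to 86.95, with a fall of Mrc1 to 0.45 times (limma adjusted p = 0.0221). The 7 smooth muscle and pericyte markers summed to 603 to 794 FPKM, against 782 to 1111, and none of the 7 passed the test. Acta2 was the largest part of that sum, at a mean of 464 FPKM with perhexiline, against 697 with vehicle. Rgs5, Pdgfrb and Notch3 stood at 1.66, 1.04 and 1.03 times their vehicle means, and the other 4 stood below. Endothelial (6 in the table), mesothelial and epithelial (7) and Schwann cell (4) markers each summed to less than the macrophage list in every library, and no gene of these lists passed the test. In the mesothelial and epithelial list, 3 genes (Krt5, Cdh1 and Epcam) were below 1 FPKM in every library, with Krt5 at 0 in 5 libraries. Msln averaged 6.08 FPKM with perhexiline, against 7.15 with vehicle, and Upk3b, Wt1 and Krt14 also averaged over 1 FPKM in both groups. In bulk RNA, fewer cells of a type and less RNA per cell cannot be told apart. The part of these marker differences in the results on the members was not tested.

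Vehicle replicate 3 stood apart from the other vehicle libraries for these genes. It had the lowest vehicle value for 8 of the 9 members and for 8 of the 9 cardiomyocyte markers, against 35.4% of all tested genes. Its Xirp2, Xirp1, Dsg2 and Des values were 0.62, 0.76, 0.77 and 0.78 times the mean of vehicle replicates 1 and 2. Only for Gja1, at 1.02 times, was it not the lowest. Perhexiline replicate 2 had the lowest perhexiline value for 6 of the 9 members and 5 of the 9 cardiomyocyte markers, against 34.1% of all tested genes. For the members, where leaving out a library makes a call or moves a log2 difference by over 1.5 times, the value without it is also given. For the lists of other genes such fits are given mostly as counts, and for the cell type markers they are not given.

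The question was how perhexiline changed the RNA of these junction and attachment genes. None of the 9 members passed the test, in either direction: limma on log2(FPKM + 1) across 13460 genes gave 0 of 9 lower, where 3.11% of all tested genes were called lower, and 0 of 9 higher, where 3.55% were. Of the 9, 7 stood below vehicle, with a median log2 difference of -0.15 over the 9 against 0.01 over all tested genes. At an unadjusted p under 0.05, 4 members stood lower (Vcl, Dsp, Dsg2 and Cdh2) against 12.3% of all genes, and 0 stood higher against 13.4%. The perhexiline values lay below every vehicle value for 3 members (Vcl, Dsp and Cdh2), which was the case for 14.9% of all genes, and above every vehicle value for 0 members, against 17% of genes. Without vehicle replicate 3, 4 members were called lower (Vcl, Dsg2, Xirp1 and Cdh2), against 3.34% of all genes in that fit. Limma-voom on the recovered fragments called 1 member, Vcl, lower, against 6.43% of all genes.

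**Figure D1:**
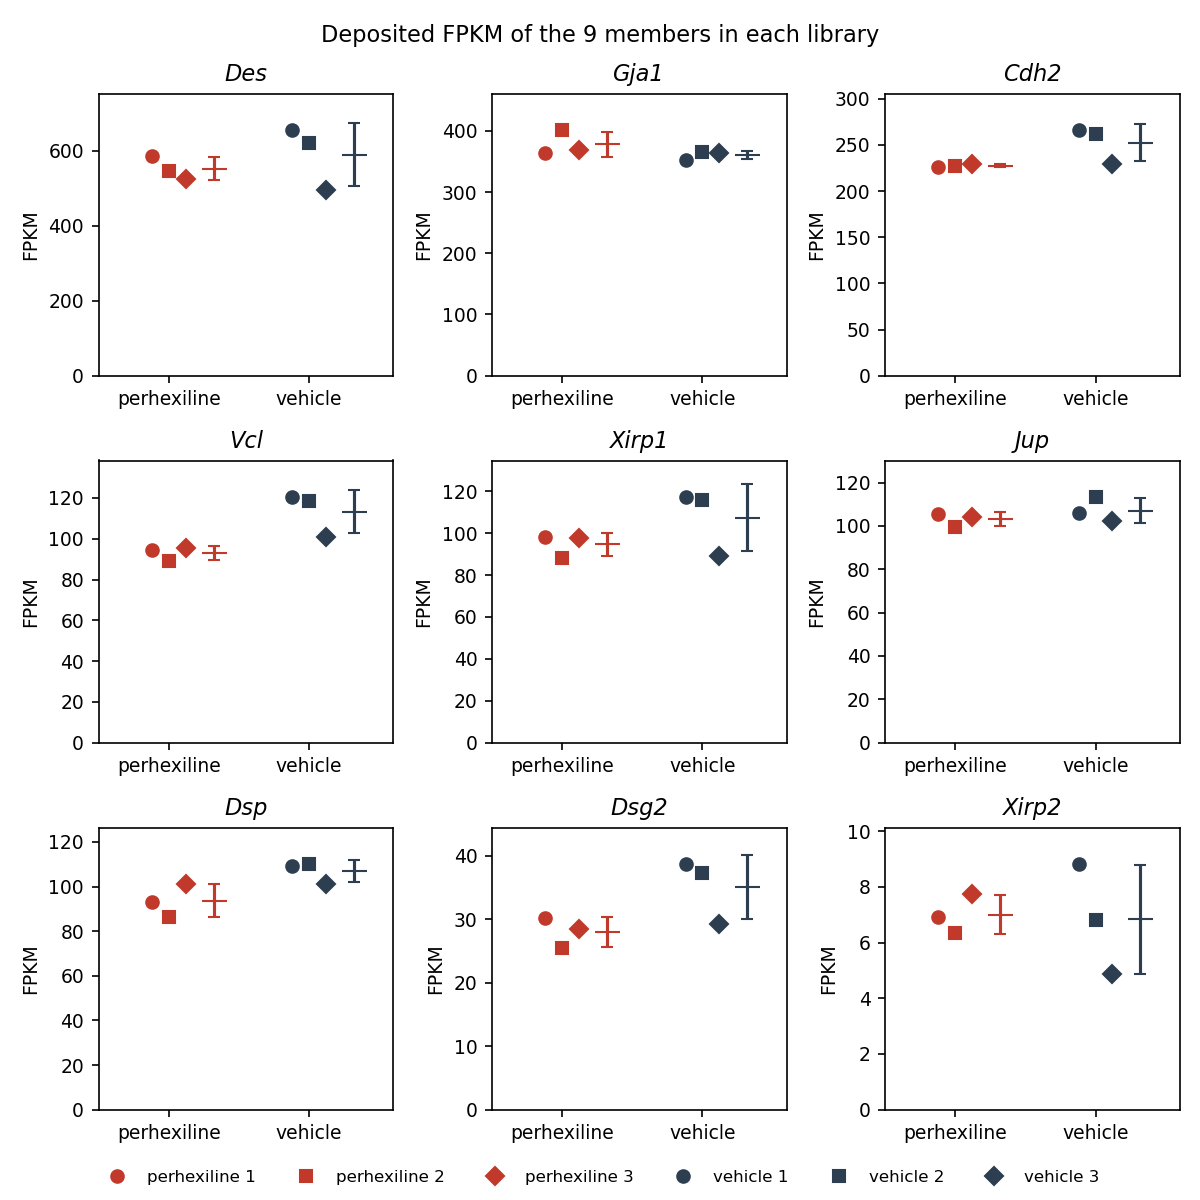
FPKM of each of the 9 members by library, with 3 perhexiline libraries (left, red) and 3 vehicle libraries (right, dark) per panel, and the mean ± SD beside the points. Vehicle replicate 3 (dark diamond) has the lowest vehicle value in 8 of the 9 panels, and the groups are separated for Vcl, Dsp and Cdh2.

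Cdh2 encodes N-cadherin, the transmembrane cadherin of the cardiac adherens junction (chromosome 18, 8146971 to 8360684, minus strand; coordinates are as deposited, on a build that the sources used here do not give). It had 225.8, 227.4 and 228.8 FPKM in perhexiline replicates 1 to 3, against 266, 262 and 229.5 FPKM in vehicle replicates 1 to 3. The groups did not overlap, but vehicle replicate 3 was within 1 FPKM of perhexiline replicate 3. The SD of the perhexiline libraries was 0.66% of their mean (n = 3). In log2 it differed by -0.15 ± 0.063 (SE; limma adjusted p = 0.193, p before adjustment = 0.0494). Without vehicle replicate 3 it was -0.21 and was called (adjusted p = 0.0479; range over all alternatives 0.0479 to 0.428), and without vehicle replicate 1 it was -0.11.

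Vcl encodes vinculin, which ties actin filaments to both the adherens junction and the costamere (chromosome 15, 3455211 to 3544702, minus strand). It had 94.5, 88.9 and 95.6 FPKM with perhexiline, against 120.3, 118.7 and 101 FPKM with vehicle. All perhexiline values were below all vehicle values, and the nearest were 95.6 and 101. Vcl came closest to the threshold among the members, at 0.82 times its vehicle mean, and its log2 difference was -0.28 ± 0.074 (SE; limma adjusted p = 0.0651, p before adjustment = 0.00622). It was called lower with limma-voom (adjusted p = 0.0254), with a mean FPKM of at least 5 as the filter (0.0474, where 5.63% of genes were called lower) and without vehicle replicate 3 (0.0245), and not in the other alternatives, whose values reached 0.638. Its log2 difference ran from -0.36 without vehicle replicate 3 to -0.23 without vehicle replicate 1. The 250 bases before its RefSeq start site are shown because Vcl had the smallest p of the members. They are GRCr8, chr15:3404801-3405050, minus strand, and the capitals mark the GC box GGGCGG, which is bound by Sp1-type factors and occurred 4 times, the first pair sharing 1 base.
Vcl: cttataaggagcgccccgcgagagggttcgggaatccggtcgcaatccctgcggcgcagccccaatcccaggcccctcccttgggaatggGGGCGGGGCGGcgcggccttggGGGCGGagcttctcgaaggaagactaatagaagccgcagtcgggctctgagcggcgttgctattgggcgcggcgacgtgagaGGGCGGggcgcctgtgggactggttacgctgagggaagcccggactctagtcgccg

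Among the desmosomal members, log2 differences ran from -0.31 for Dsg2 to -0.05 for Jup, none passed, and their 95% intervals overlapped. Dsg2, the desmosomal cadherin desmoglein-2 (chromosome 18, 15579315 to 15637715), had 30.1, 25.4 and 28.4 FPKM with perhexiline, against 38.6, 37.3 and 29.3 FPKM with vehicle. Its groups overlapped only through vehicle replicate 3, which lay below perhexiline replicate 1. Its log2 difference of -0.31 ± 0.11 (SE) was the lowest among the members and did not pass (limma adjusted p = 0.133). Without vehicle replicate 3 it was -0.43 and was called (adjusted p = 0.0351; range over all alternatives 0.0351 to 0.916), and without vehicle replicate 1 it was -0.24.

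Dsp, encoding desmoplakin, which joins the desmosome to desmin filaments (chromosome 17, 27286796 to 27334379), had 93.1, 86.5 and 101.2 FPKM with perhexiline, against 109.4, 109.98 and 101.3 FPKM with vehicle. The groups were separated by a gap of under 1 FPKM, between perhexiline replicate 3 and vehicle replicate 3. The log2 difference was -0.19 ± 0.067 (SE; limma adjusted p = 0.126), and Dsp was called in none of the alternatives.

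Jup encodes plakoglobin, the armadillo protein that serves both the desmosome and the adherens junction (chromosome 10, 88279632 to 88307412). It had 105.6, 99.6 and 104 FPKM with perhexiline, against 105.9, 113.2 and 102.1 FPKM with vehicle. The groups overlapped, and the 95% interval of the log2 difference ran from -0.18 to 0.07 (limma adjusted p = 0.57). The difference itself was -0.05, and it ran from -0.09 without vehicle replicate 3 to -0.01 without vehicle replicate 2, with -0.03 without perhexiline replicate 2. The ratio of Jup to Dsg2 was 3.51, 3.92 and 3.67 with perhexiline, against 2.74, 3.04 and 3.49 with vehicle. These ranges were separate but close, and an exact permutation test of the log2 ratio gave p = 0.1, two-sided, the smallest that 3 against 3 libraries allow.

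The table held 1 row with a placeholder name, AABR07034767.1, that its own description column likens to human plakophilin-2, the desmosomal armadillo protein. This row was found after the values were in view and is not counted among the members. It had 73.5, 65.3 and 67.8 FPKM with perhexiline, against 93.2, 87.4 and 74.3 FPKM with vehicle. The groups did not overlap, as was the case for 14.9% of all genes. The nearest values were 73.5 in perhexiline replicate 1 and 74.3 in vehicle replicate 3. The log2 difference of this row, -0.29 ± 0.088 (SE), did not pass (limma adjusted p = 0.0863) and was close in size to those of Dsg2 and Vcl.

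Gja1 encodes connexin 43, the main gap junction protein of the ventricle (chromosome 20, 37876650 to 37889089). It had 363, 401 and 369 FPKM with perhexiline, against 353, 365 and 364 FPKM with vehicle. The groups overlapped, vehicle replicate 3 lay with the other vehicle libraries, and the log2 difference was 0.06 ± 0.053 (SE; limma adjusted p = 0.477), with a 95% interval of -0.06 to 0.19. Without perhexiline replicate 2, the highest library, it was 0.02 (adjusted p = 0.853). Relative to Cdh2 in the same library, Gja1 was at 1.61, 1.76 and 1.61 with perhexiline, against 1.33, 1.39 and 1.59 with vehicle. Relative to Vcl it was at 3.84, 4.51 and 3.86, against 2.93, 3.07 and 3.61. Neither ratio overlapped between the groups, and each gave p = 0.1 in an exact permutation test, two-sided. Relative to Dsg2, where the groups overlapped, the exact permutation p was 0.2. Together with Jup to Dsg2 and Des to Synm, 5 ratios were compared, all chosen after the values were seen, and adjusted over the 5 their p-values were 0.125 to 0.2.

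Xirp1 and Xirp2 encode Xin repeat proteins, which bind actin filaments and sit at the intercalated disc and at muscle attachment sites. Both genes are known targets of MEF2 factors in mice. Xirp1 (chromosome 8, 128702133 to 128711221) had 98.1, 88.3 and 97.6 FPKM with perhexiline, against 117.1, 116 and 89 FPKM with vehicle. Vehicle replicate 3 lay among the perhexiline libraries and the log2 difference of -0.17 ± 0.11 (SE) did not pass (limma adjusted p = 0.359). Without that library it was -0.30 and was called lower (adjusted p = 0.0437; range over all alternatives 0.0437 to 0.663). It was -0.10 without vehicle replicate 1 and -0.11 without vehicle replicate 2.

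Xirp2 (chromosome 3, 53563194 to 53658132) had 6.91, 6.35 and 7.74 FPKM with perhexiline, against 8.81, 6.82 and 4.87 FPKM with vehicle. Its vehicle libraries spanned the whole perhexiline range, with an SD of 28.9% of the mean against 9.95% with perhexiline. The 95% interval of its log2 difference, -0.36 to 0.47, was the widest among the members. The difference of 0.06 turned to -0.13 without vehicle replicate 3 and to -0.01 without perhexiline replicate 3 (limma adjusted p = 0.542 and 0.988). It was 0.24 without vehicle replicate 1 and 0.12 without perhexiline replicate 2.

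The start regions of these paralogs are shown because the MEF2 gene Mef2c, encoding a transcription factor of muscle genes, fell (14.7, 13.1 and 14.5 FPKM with perhexiline, against 20.6, 19.4 and 19.8 FPKM with vehicle; limma adjusted p = 0.0145) while neither Xin gene passed the test. The Mef2c call was lost in 2 of the 6 fits without 1 library and where the markers set the scale. Of the more abundant MEF2 genes, named after their values were seen, Mef2a averaged 60.4 ± 2.66 FPKM with perhexiline, against 67.7 ± 1.33 FPKM with vehicle (limma adjusted p = 0.0898). Mef2d averaged 58.97 ± 4.16 FPKM, against 56.5 ± 1.54 FPKM (SD, n = 3 each; limma adjusted p = 0.576), and neither passed. In the 250 bases before their RefSeq start sites (GRCr8), both held 1 match to the MEF2 consensus, marked in capitals. A match was held by 2.96% of 33469 rat promoter windows of the same length. Whether the MEF2 genes bear on the RNA of either Xin gene was not tested. Xirp1 has 3 RefSeq start sites, and only the window of that nearest the gene's 5′ end was searched. The Xirp1 window is chr8:128635012-128635261, minus strand, and its match lies 82 to 73 bases before the start. The Xirp2 window is chr3:72533936-72534185, plus strand, and its match lies 74 to 65 bases before the start.
Xirp1: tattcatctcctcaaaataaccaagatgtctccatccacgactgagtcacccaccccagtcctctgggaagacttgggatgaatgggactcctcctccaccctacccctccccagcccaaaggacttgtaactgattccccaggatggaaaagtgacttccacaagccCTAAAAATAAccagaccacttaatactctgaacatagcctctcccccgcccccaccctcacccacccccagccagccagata
Xirp2: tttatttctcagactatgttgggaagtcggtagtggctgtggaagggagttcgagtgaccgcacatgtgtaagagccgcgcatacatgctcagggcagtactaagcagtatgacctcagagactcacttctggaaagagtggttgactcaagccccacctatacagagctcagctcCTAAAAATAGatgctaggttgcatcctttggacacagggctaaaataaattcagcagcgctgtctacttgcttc

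Promoter sequences were found for 8 of the 9 members, without Cdh2. On both strands, the MEF2 consensus was found only in Xirp1 and Xirp2, the E box CAGCTG only in Des (12% of all windows) and the GC box GGGCGG in 6 members, Vcl, Dsp, Des, Dsg2, Jup and Xirp1 (30.5% of all windows). The TATA box TATAAA (12.9%) and the CArG box (1.5%) were found in none of the 8, and the motifs searched did not overlap each other in these windows. Matches describe letters in these windows only, and binding was not measured.

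Des encodes desmin, the muscle intermediate filament that links Z-discs to desmosomes and costameres (chromosome 9, 82556573 to 82564294). It was the most abundant member per length, at 586, 546 and 524 FPKM with perhexiline, against 654, 620.2 and 494 FPKM with vehicle. Vehicle replicate 3 was below all perhexiline libraries, the groups overlapped, and the log2 difference was -0.09 ± 0.11 (SE; limma adjusted p = 0.651), or -0.21 without that library (adjusted p = 0.109). It was -0.0050 without vehicle replicate 1, -0.04 without vehicle replicate 2 and -0.05 without perhexiline replicate 3.

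**Figure D2:**
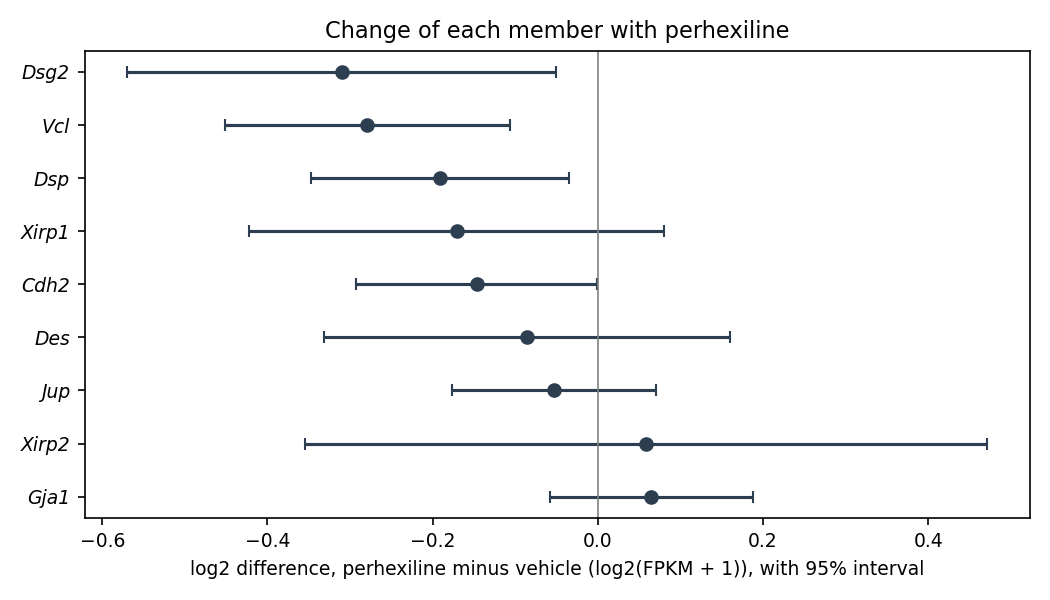
Log2 difference (perhexiline minus vehicle, on the log2(FPKM + 1) scale) of each member with its 95% interval from limma, 3 libraries per group. The intervals of Dsg2, Vcl, Dsp and Cdh2 lie below 0 before adjustment, and no member passed after adjustment over 13460 genes.

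The levels of the members fell into steps, and Des, Gja1, Cdh2, Dsg2 and Xirp2 kept their places in both groups. Per gene length, mean levels with perhexiline were 552 FPKM for Des, 378 for Gja1 and 227 for Cdh2, against 589.5, 361 and 252 FPKM with vehicle, and no adjacent pair of these overlapped within a group. Vcl, Xirp1, Jup and Dsp followed at 93 to 103 FPKM with perhexiline, against 107 to 113 with vehicle. Among these 4, Vcl averaged highest with vehicle and Jup with perhexiline. With vehicle each neighbouring pair of the 4 overlapped, and with perhexiline every Jup value lay above every Xirp1 and Vcl value. Dsg2 averaged 27.97 ± 2.39 FPKM with perhexiline, against 35.1 ± 5.05 with vehicle, and Xirp2 7.00 ± 0.70, against 6.83 ± 1.97 (SD, n = 3 each). In the vehicle libraries, Des, Gja1 and Cdh2 lay above the 98th percentile of tested genes (98.1 for Cdh2), Dsg2 at 82.0 and Xirp2 at 38.2.

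The members together made up 0.637%, 0.628% and 0.635% of all fragments with perhexiline, against 0.683%, 0.684% and 0.611% with vehicle. The groups overlapped through vehicle replicate 3. Set against the geometric mean of the 9 cardiomyocyte markers in the same library, the summed FPKM of the members was 1.36, 1.504 and 1.44 with perhexiline, against 1.23, 1.23 and 1.22 with vehicle. Over this measure vehicle replicate 3 lay with the other vehicle libraries. Des, Gja1, Cdh2, Xirp1 and Jup were higher relative to the markers in every perhexiline library than in any vehicle library. These 5 of 9 are close to the 51.8% of all tested genes that were separated upward over the same markers. Vcl, Dsp, Dsg2 and Xirp2 overlapped, and 0 of 9 members were separated downward, against 2.16% of all genes. For Gja1 the ratio to the markers was 0.307, 0.384 and 0.34, against 0.245, 0.256 and 0.292, and for Dsg2 it was 0.0255, 0.0243 and 0.0262, against 0.0268, 0.0262 and 0.0235.

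Scaling all genes to these markers moved the median log2 difference of all genes to 0.31 and called 39.3% of them higher, among them 3 of the 9 members (Gja1, Jup and Des). Relative to that shift the members ran from -0.29 for Dsg2 to 0.09 for Gja1, in the same order as before. Directions given here are those of the deposited scaling, and those of the 7 members below vehicle turn positive when the markers set the scale, as does that of Jup with scaling to total fragments.

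**Figure D3:**
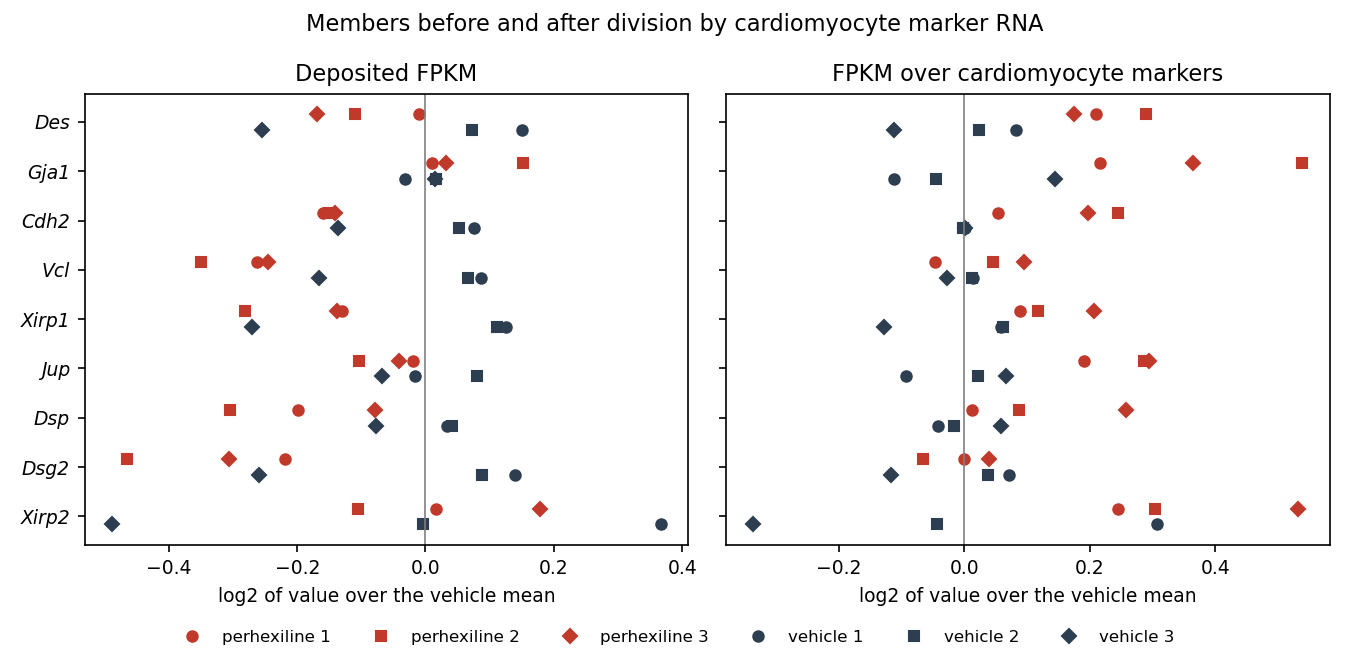
Each member by library as log2 of its value over the vehicle mean, for deposited FPKM (left) and for FPKM divided by the geometric mean of 9 cardiomyocyte markers (right); perhexiline in red above vehicle in dark, with a symbol per replicate. On the right, Des, Gja1, Cdh2, Xirp1 and Jup are separated upward, as were 51.8% of all tested genes, and vehicle replicate 3 remains the lowest vehicle library for Des, Vcl, Xirp1, Dsg2 and Xirp2.

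Other genes of the same structures were counted by list. Of 75 tested genes in 7 lists, 17 fell and 0 rose (limma), against 3.11% and 3.55% of all genes, and the median log2 difference was -0.16. At an unadjusted p under 0.05, 36 stood lower and 5 higher, against 12.3% and 13.4% of all genes. Limma-voom called 26 lower and 3 higher, against 6.43% and 5.17% of all genes. The falls numbered 16 without perhexiline replicate 1 (3.15% of all genes) and 20 without vehicle replicate 3 (3.34%). They numbered 3 without perhexiline replicate 2 (0.379% of all genes), 2 without perhexiline replicate 3 (0.23%), 0 without vehicle replicate 1 (0.223%) and 2 without vehicle replicate 2 (0.312%). With the cardiomyocyte markers setting the scale, 2 genes (Synm and Sspn) were lower, against 0.743% of all genes, and 18 higher, against 39.3%. The marker list stood beside these lists with 3 falls among 9 genes and a median of -0.37.

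The dystrophin complex joins the costamere to the extracellular matrix, and 5 of its 12 tested genes fell, with a median log2 difference of -0.31. Sspn, encoding the small membrane protein sarcospan, had 31.3, 22.6 and 28.4 FPKM with perhexiline, against 42.6, 44.7 and 41.6 FPKM with vehicle (log2 difference -0.64, limma adjusted p = 0.024). The sarcoglycan genes Sgca and Sgcd stood at 0.77 and 0.67 times their vehicle means (limma adjusted p = 0.0236 and 0.0203). Dtna, encoding the cytoplasmic partner dystrobrevin and named after its values were seen, was at 0.74 times (adjusted p = 0.0455). Dmd, the dystrophin gene itself, had 17, 16.7 and 17.9 FPKM, against 22.2, 20.5 and 19.8 FPKM, and just missed the threshold (adjusted p = 0.0504). Its relative Utrn, encoding utrophin, stood at 17.8 ± 1.68 and 18.1 ± 0.71 FPKM in perhexiline and vehicle libraries (SD, n = 3 each; limma adjusted p = 0.897).

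Of 20 tested genes of the integrin costamere, 3 fell (median -0.20). Lims1 and Lims2 encode PINCH adaptor proteins, which bind integrin-linked kinase. Lims1 had 24.6, 22.4 and 26.7 FPKM with perhexiline, against 33.5, 32.2 and 34 FPKM with vehicle (limma adjusted p = 0.022). Lims2 had 107.7, 87.9 and 93.1 FPKM, against 141.8, 147.9 and 119.9 (adjusted p = 0.0337). Svil, encoding the actin and myosin binding protein supervillin, was at 0.81 times its vehicle mean (adjusted p = 0.04).

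Among 9 tested genes of the intermediate filament network, 3 fell (median -0.13), while Des, as given above, did not pass. Synm encodes synemin, a filament protein that copolymerizes with desmin, and had 8.32, 6.65 and 7.59 FPKM with perhexiline, against 12.7, 12.5 and 10.4 FPKM with vehicle (log2 difference -0.60, limma adjusted p = 0.0258). Sync, encoding syncoilin, had 14.6, 12.6 and 13.4 FPKM, against 19.7, 20.5 and 17.9 (adjusted p = 0.0203). Vim, the vimentin gene of non-muscle and immature muscle cells, was at 0.81 times its vehicle mean (adjusted p = 0.0258). The ratio of Des to Synm was 70.4, 82.2 and 69.1 with perhexiline, against 51.4, 49.4 and 47.7 with vehicle. The ranges did not overlap, and the exact permutation test, two-sided, gave p = 0.1, the smallest it can give here. This ratio was chosen after the values were seen, and it sets Des against a gene already called lower.

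Of 10 tested gap junction and sodium channel partners, 3 fell (median -0.19). Fgf13, which binds cardiac sodium channels, had 12.2, 10.7 and 11.2 FPKM with perhexiline, against 17.1, 16.4 and 16.7 FPKM with vehicle (log2 difference -0.52, limma adjusted p = 0.0114). Tmem65, an intercalated disc membrane protein, was at 0.71 times (adjusted p = 0.0207), and Ank3, encoding the membrane anchor ankyrin-G, at 0.74 times its vehicle mean (adjusted p = 0.0249). The other connexins Gjc1 and Gja5, named after their values were seen, did not pass (limma adjusted p = 0.433 and 0.311).

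Only 1 of 8 tested adherens junction genes fell (median -0.06), and this was the scaffold Tjp1, encoding ZO-1, a partner of connexin 43 (35.8, 35.4 and 37.1 FPKM with perhexiline, against 46.6, 42.9 and 42.5 FPKM with vehicle; limma adjusted p = 0.0315). The other desmosomal genes had 1 fall among 5 tested, that of Perp (0.73 times, limma adjusted p = 0.0223), a tetraspan membrane protein of desmosomes. The genes Dsg1, Dsg3, Dsg4, Dsc1, Dsc3, Pkp3 and Evpl of that list were below the filter. Of 11 tested regulators of these genes, Mef2c alone fell and the median was -0.16. None of the 17 falls passed in all 6 fits that left out 1 library, and Fgf13 and Mef2c passed in 4 of them (highest adjusted p = 0.0523 and 0.0604). The lowest adjusted p in the lists was that of Fgf13, and whether the members and these lists differ in their response was not tested.

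**Figure D4:**
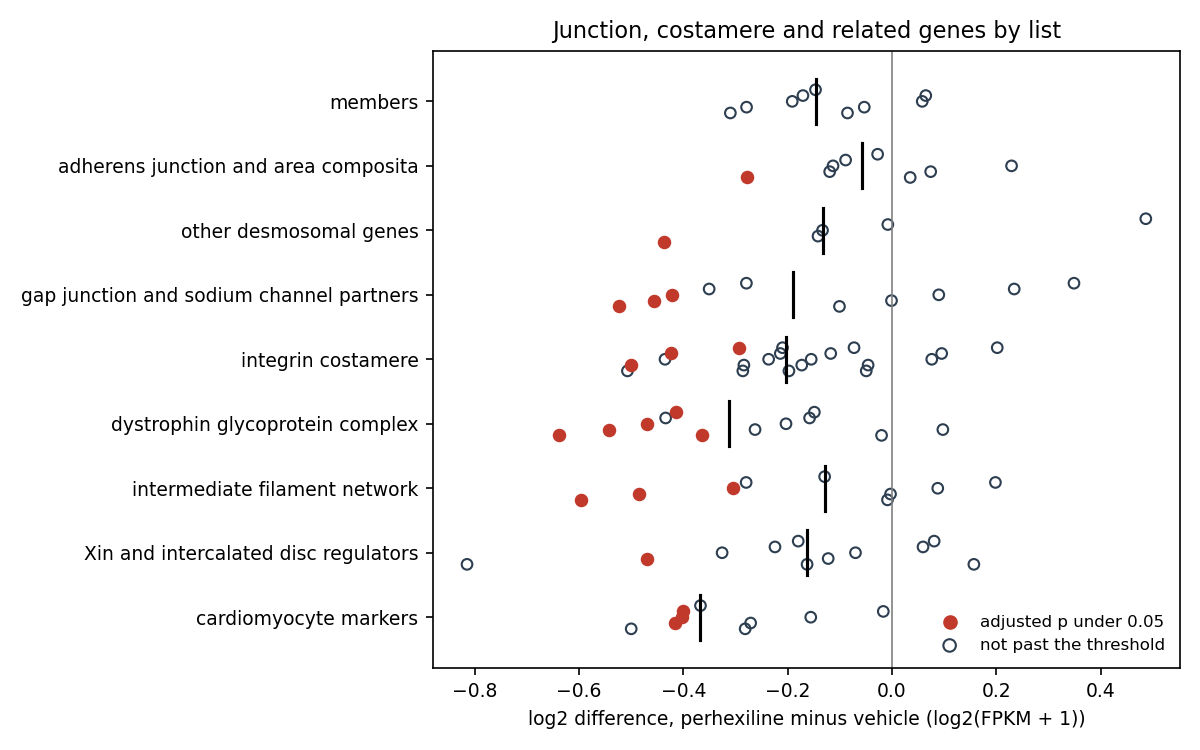
Log2 difference (perhexiline minus vehicle, log2(FPKM + 1) scale) of each tested gene by list, with the members on top and the cardiomyocyte markers at the bottom. Filled red points passed an adjusted p of 0.05, open points did not, and the bar is the median of the list; the 17 falls lie in the other 7 lists, with 5 in the dystrophin complex and 0 among the members, in the deposited scaling (with marker scaling 2 are lower and 18 higher).

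The gene whose 6 values, centred on their mean in log2, lay nearest to those of Vcl was Dysf, encoding the membrane repair protein dysferlin, at a root mean square distance of 0.019, followed by Cntnap1 (0.024). For Cdh2 the nearest were Vldlr (0.011) and Immp1l (0.021), for Gja1 Rnpep (0.0072) and Ppp1r14b (0.016), and for Des Slc1a3 (0.021) and Gmppa (0.026). Xirp1 lay nearest to Hivep1 (0.018) and Tmc7 (0.021), and Jup to Fgfr1 (0.015) and Rogdi (0.016). Dsp lay nearest to Casz1 (0.019) and Dcbld2 (0.020), and Dsg2 to Cacna1a (0.025) and Dock8 (0.034). Xirp2, the member with the widest vehicle spread, had its nearest genes at 0.046 (Hyls1) and 0.065 (Rimklb). Among the members the closest pair was Vcl and Dsg2 (0.063), and the distance describes likeness over these 6 libraries only.

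**Figure D5:**
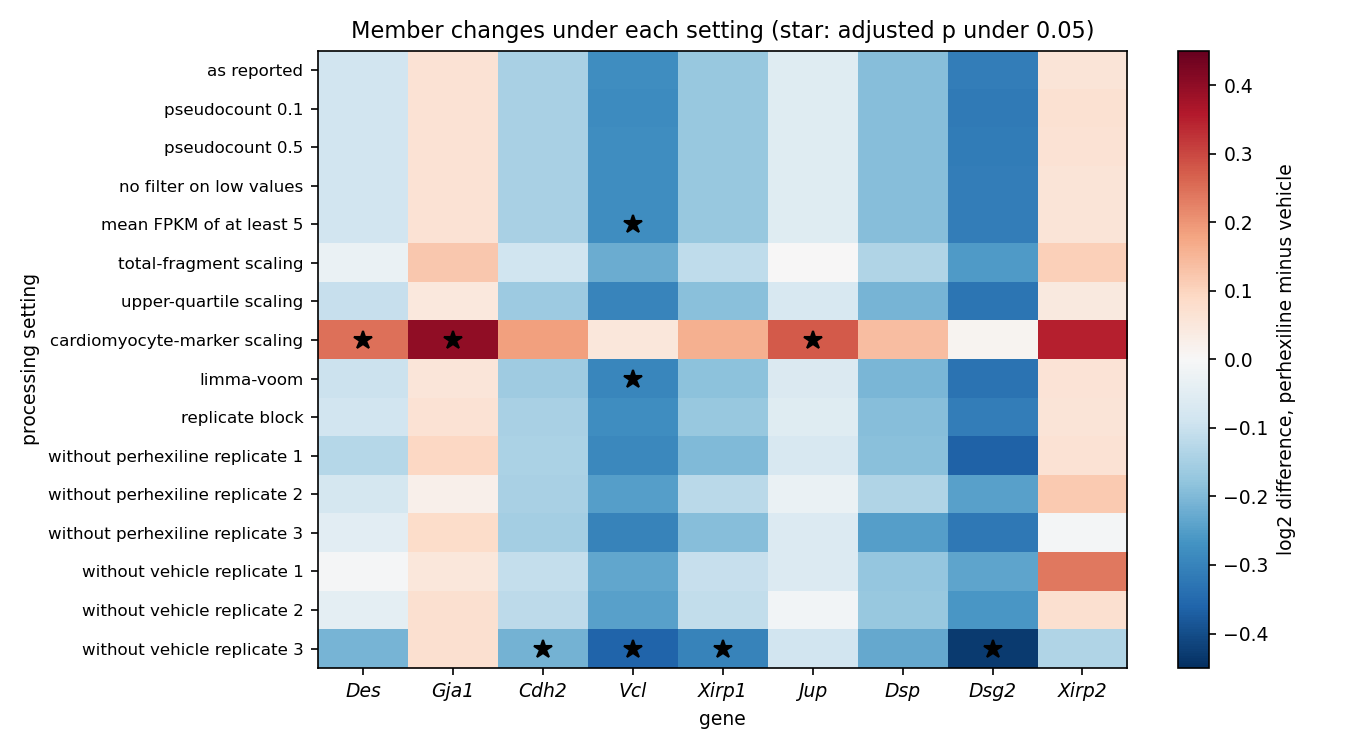
Log2 difference of each member (columns) under each processing setting (rows), with blue for lower and red for higher in perhexiline libraries and a star where the adjusted p was under 0.05. Stars for lower values appear for Vcl in 3 settings and for Cdh2, Xirp1 and Dsg2 without vehicle replicate 3, and all 9 members are above 0 where cardiomyocyte markers set the scale.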

How the data were processed

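Poly(A) RNA of 6 libraries was sequenced. The deposited values are FPKM per gene, per the file headers, beside a gene length for each of 34257 genes. HISAT2 2.0.5 and DESeq2 are named in the submitters' processing notes with no role. Sources used here do not give build, annotation or counter, so counting by strand is unknown. FPKM times length gave whole multiples of 1 step per library for 100% of positive values (tolerance 0.01), which were taken as fragments (13616252 to 16702523 per library). Where paralogs share sequence, their reads cannot be told apart.

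Libraries were grouped by their labels. Tests ran on log2(FPKM + 1) for the 13460 genes that reached 1 FPKM in 3 libraries or more. Limma 3.58.1 (R 4.3.3) compared the groups, two-sided, with a trended empirical Bayes prior and no covariate. A gene was called where its p, adjusted by Benjamini-Hochberg over all genes, was under 0.05. A log2 difference on this scale understates the change of low genes, and ratios are of mean FPKM. All adjusted p-values are from this fit unless another is named. Single ratios were compared with exact permutation tests (SciPy 1.17.1), whose smallest p is 0.1. The procedure was tested on simulated data, where it called 19.6% of genes changed by 1.25 times and 69.2% of those changed by 1.5 times. The members lay at 0.80 (Dsg2) to 1.05 (Gja1) times their vehicle means, so changes of their size can be missed.

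The members and lists were chosen with earlier results of these data known. No p is given for sums over the members. Named genes were all members, up to 4 called genes per list with the smallest adjusted p, and for each member the 2 named genes with the nearest profile. Of 136 list symbols, 4 were not in the table, and some genes of the lists are counted but not reported here by name. Promoter windows are RefSeq's (GRCr8), 250 bases before the start site nearest the gene's 5′ end. The alternatives were other pseudocounts, filters and scalings, limma-voom, the replicate number as a block and each library left out.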

Additional observations from a re-analysis of the deposited data

How the results depend on the processing

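Of 135 values of the 9 members under 15 alternatives, 118 kept their direction and side of the threshold. With 0 members called lower as reported, 1 was called where only genes averaging 5 FPKM or more were tested, 1 with limma-voom and 4 without vehicle replicate 3, so the range over fits without 1 library was 0 to 4. Scaling to cardiomyocyte markers called 3 members higher and 5388 genes in all, and turned Des (0.25), Cdh2 (0.19), Vcl (0.052), Xirp1 (0.16), Jup (0.28), Dsp (0.14) and Dsg2 (0.013) above 0, with the median of all genes at 0.31. Total-fragment scaling turned Jup to 0.0025, and in fits without 1 library Xirp2 ran from -0.13 (without vehicle replicate 3) to 0.24 (without vehicle replicate 1), with -0.0074 without perhexiline replicate 3. Its highest value was 0.35, with marker scaling. Of all genes, 896 were called as reported, 162 with no filter on low values, 1562 with limma-voom, 173 with the replicate block and 87 to 841 without 1 library. Of the genes in the pathway lists, 17 were called as reported, 2 with no filter, 29 with limma-voom, 4 with the replicate block and 0 to 21 without 1 library. The causes of these moves were not tested. Same-numbered libraries did not deviate together (correlations -0.02, -0.10 and -0.04). With so few libraries per group, this cannot tell whether the number stands for a shared culture or isolation. Under the replicate block 0 members were called. The summed share of fragments and the ratio to the markers moved by less than 1 SD (0.926 to 0.978 and 1.14 to 1.22 times vehicle).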

Other observations

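Hand2, a transcription factor gene of the ventricle in the list of regulators, had 7.88, 0.888 and 9.34 FPKM in perhexiline replicates 1 to 3, against 9.47, 10.1 and 7.10 FPKM in vehicle replicates 1 to 3. Perhexiline replicate 2 rested on 9 fragments of this gene. The groups overlapped (limma adjusted p = 0.419).

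The table held 3 rows without a gene symbol whose description likens them to mouse catenin alpha-3, which joins cadherins and desmosomes in the heart. All 3 stood lower in every perhexiline library than in any vehicle library, as did 14.9% of tested genes, at 0.65, 0.79 and 0.74 times their vehicle means, and none passed the test (limma adjusted p = 0.129, 0.108 and 0.12). These rows may be pieces of 1 gene, so they are not independent.

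Zyx, encoding the adhesion protein zyxin, stood higher with perhexiline (136.5, 135.5 and 127.2 FPKM, against 118.8, 116.8 and 104.9 FPKM with vehicle) and did not pass (limma adjusted p = 0.0651). The desmosomal gene Pkp1 had 3.02, 3.23 and 3.33 FPKM, against 1.82, 1.72 and 2.50 FPKM (limma adjusted p = 0.0582). These genes were chosen after their values were seen.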
